A study of Xenopus laevis with 6 samples.

Results

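The Sox and Forkhead (Fox) transcription factor genes were described in 1 expression profile of the early gastrula of the frog Xenopus laevis. Members were the probe sets whose single gene symbol in the platform annotation, without the suffix for the gene copy, starts with sox and a digit or with fox, a letter and a digit. 1 fox gene was left out. This gave 78 probe sets of 32635 in the table. They stand for 60 gene copies of 11303 named ones, namely 19 sox copies and 41 fox copies. The suffixes L and S mark the copies that this allotetraploid species keeps in its long and short subgenomes.

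According to the labels, 3 RNA samples came from embryos given 20 ng of an Ext1 morpholino at the 2-cell stage, and 3 from embryos given 20 ng of a mispaired (mismatch) control morpholino. A morpholino is an antisense oligonucleotide that blocks the use of an RNA, and Ext1 is an enzyme that builds heparan sulfate chains. All embryos came from in vitro fertilization and were lysed at stage 10.5, and each sample is a pool of 5 embryos. The strain is not given in the sources used here. Affymetrix Xenopus laevis Genome 2.0 arrays were used, on which a set of short oligonucleotides reads each transcript.

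The 2 groups could not be compared. For each of the 30 ordered pairs of columns, a single constant was enough to get one from the other at all probe sets, to within the rounding of the last decimal. The constants, relative to the first mispaired control, ran from 0.9894 to 1.0239, and the column medians from 110.07 to 113.91. The endoderm gene copy sox17a.L had signals of 1425.44, 1475.19 and 1471.46 in Ext1 morpholino samples 1, 2 and 3, against 1440.75, 1427.92 and 1467.8 in control samples 1, 2 and 3. These 6 values are 1 number times the column constants, and so are those of every other member. The mean of the 6 columns was therefore taken as 1 profile that belongs to neither group, with n = 1 and no error.

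Sox proteins bind DNA through an HMG box, a domain that bends the double helix, and often act together with a partner factor. Forkhead proteins bind through a winged helix, and members of the A subfamily are known as pioneer factors that open closed chromatin. In the frog gastrula, factors of both families take part in setting up the germ layers. Sox B1 and Fox I factors act in the ectoderm, Sox F factors in the endoderm, and Fox A and Fox D factors in the organizer and the tissues it forms.

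As a floor for the signal, the highest of the 17 Affymetrix Tag controls was used, which read artificial sequences and not embryo transcripts. It was 24.42, and the next highest were 23.38, 23.02 and 12.88. A gene copy was counted as above the floor where its brightest probe set exceeded 24.42. Above the floor lay 44 of the 60 copies (73.3%), made up of 15 of 19 sox copies and 29 of 41 fox copies. Of all named gene copies, 80.4% lay above it (9087 of 11303), a somewhat larger share, and the difference was not tested. The counts by subfamily below are to be read beside this share. For all probe sets no share was computed, but their 40th percentile (54.78) exceeds the floor, so most of them lie above it. Without that share, nothing is read from the counts of probe sets above the floor that are given below. The median signal of the members at their brightest probe set was 229.54. A signal below the floor does not show that a gene was silent, because background and response differ from one probe set to the next. For the same reason, gene copies were not ranked by level, apart from this median and the members nearest the floor. Within a copy, the choice of the brightest probe set does rank different probe sets. In a pool of whole embryos, fewer cells of a type and less RNA per cell cannot be told apart.

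**Figure D1:**
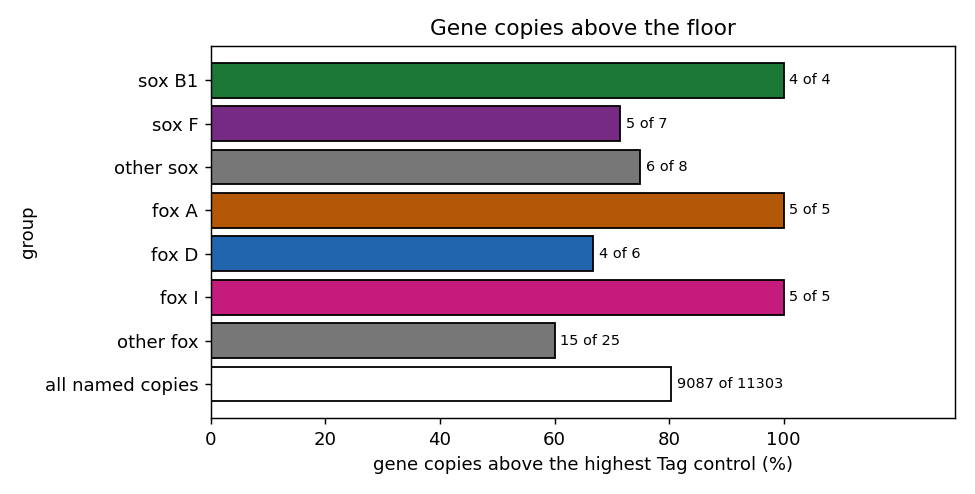
Share of gene copies above the highest Tag control (x axis, %) for each group of sox and fox genes and, at the bottom, for all named gene copies, with counts beside the bars. All copies with a probe set lay above it for sox B1 (4 of 4), fox A (5 of 5) and fox I (5 of 5). Of the other fox subfamilies, 15 of 25 copies did, against 9087 of 11303 named copies.

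The Sox B1 genes, which hold cells in a neural progenitor state, were above the floor in all 4 measured copies and all 6 of their probe sets. The probe sets of sox3.S and sox3.L read 12259.99 and 9788.95. In Xenopus, sox3 RNA is laid down in the egg and its protein limits nodal gene activity in the ectoderm. The 3 probe sets of sox2.L, a gene of the early neural plate, read 682.38, 846.99 and 1173.27, so all of them gave the same side of the floor. The related copy sox1.S read 219.54. The copy sox1.L of the RefSeq gene list had no probe set named here.

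Among Sox F genes, 5 of 7 copies lay above the floor. The endoderm determinants sox17a and sox17b.1 were above it in both copies. Their signals were 1451.43 for sox17a.L, 1243.75 for sox17a.S, 360.07 for sox17b.1.L and 3263.63 for sox17b.1.S. The gene copy sox7.L, whose gene acts in mesendoderm formation in Xenopus and later in vessels, read 278.06. Both copies of sox18, a gene of blood and lymph vessel development, were not above the floor, with 17.01 for sox18.L and 23.57 for sox18.S. Each Sox F copy was read by 1 probe set, so none of these values could be checked by another one.

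**Figure D2:**
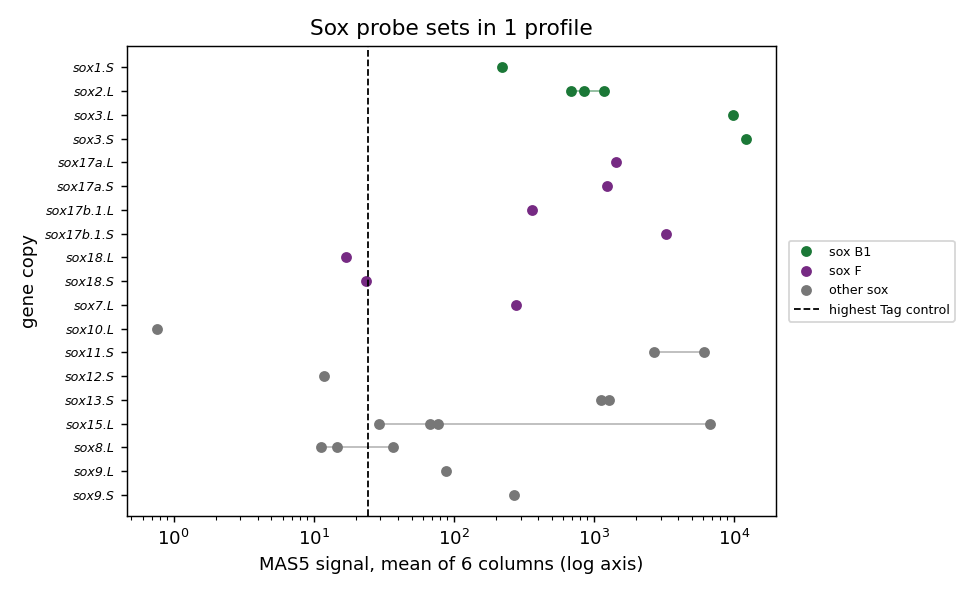
Signal of every sox probe set (points, mean of 6 columns, log axis) for the 19 gene copies, with a line joining probe sets of 1 copy and a dashed line at the highest Tag control (24.42). Both sox18 copies, sox10.L and sox12.S lie to the left of the dashed line, and the 4 points of sox15.L spread from 29.21 to 6727.64.

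The remaining sox subfamilies had 6 of 8 copies above the floor. In the C subfamily, which acts in neurons that begin to differentiate, the 2 probe sets of sox11.S read 2691.15 and 6125.54, and the only probe set of sox12.S read 11.82. In the D subfamily, sox13.S read 1121.82 and 1277.06. The copy sox15.L belongs to the G subfamily. Its older name in Xenopus is SoxD, and it is known there as a mediator of neural induction in the ectoderm. Its 4 probe sets read 29.21, 67.39, 76.84 and 6727.64, so all were above the floor but spread widely.

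Sox E genes are best known for the neural crest, which forms after this stage. In this subfamily 3 of 4 copies were above the floor. The copies sox9.S and sox9.L read 267.84 and 87.36. For sox8.L only 1 of 3 probe sets exceeded the floor, with signals of 11.33, 14.65 and 36.86. The copy sox10.L, whose gene marks migrating crest cells, read 0.76.

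All 5 Fox A copies lay above the floor, at all 7 probe sets. The copies foxa4.L and foxa4.S read 2608.04 and 2454.61. Their gene, once named pintallavis, is active in the organizer and the notochord. For foxa1, an endoderm gene in later stages, the L copy read 156.78 and 412.68 and the S copy read 224.82. The node and floor plate gene foxa2 was measured for its L copy, at 29.71 and 129.69, of which the lower value lay close to the floor. Every Fox A copy of the RefSeq gene list had a probe set here.

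Of the Fox D copies, 4 of 6 lay above the floor, each with 1 probe set. The copies foxd3.S and foxd3.L, at 603.72 and 205.17, were among them. In the frog, foxd3 acts in the organizer and afterwards in the neural crest. Also above it were foxd4l1.1.S at 1250.39 and foxd4l1.2.L at 59. Older names of these genes are variants of FoxD5, and FoxD5 is known to keep the neural ectoderm immature. Not above the floor were foxd1.L, a forebrain gene, at 12.47, and foxd2.S, a gene of paraxial mesoderm, at 7.78.

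All 5 measured Fox I copies were above the floor, at all 8 probe sets. The RefSeq gene list holds 8 Fox I copies, and foxi1.S, foxi4.1.L and foxi4.1.S had no probe set named here. The maternal gene foxi2, whose protein switches on foxi1 in the ectoderm, read 922.18 for its L copy and 2172.79 for its S copy. The gene foxi1, also called ema or foxi1e and needed for ectoderm formation in Xenopus, read 259.56 for its L copy. The probe set of foxi4.2.L read 1932.2. For foxi4.2.S the 4 probe sets read 140.05, 200.78, 1641.41 and 2750.9. The name of the probe set of foxi4.2.L ends in _a_at, which marks a set that can read several transcripts of 1 gene, and the brightest one of foxi4.2.S ends in _s_at, which marks a set shared between transcripts. Without sets of this kind, foxi4.2.L had no value and foxi4.2.S stayed above the floor.

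**Figure D3:**
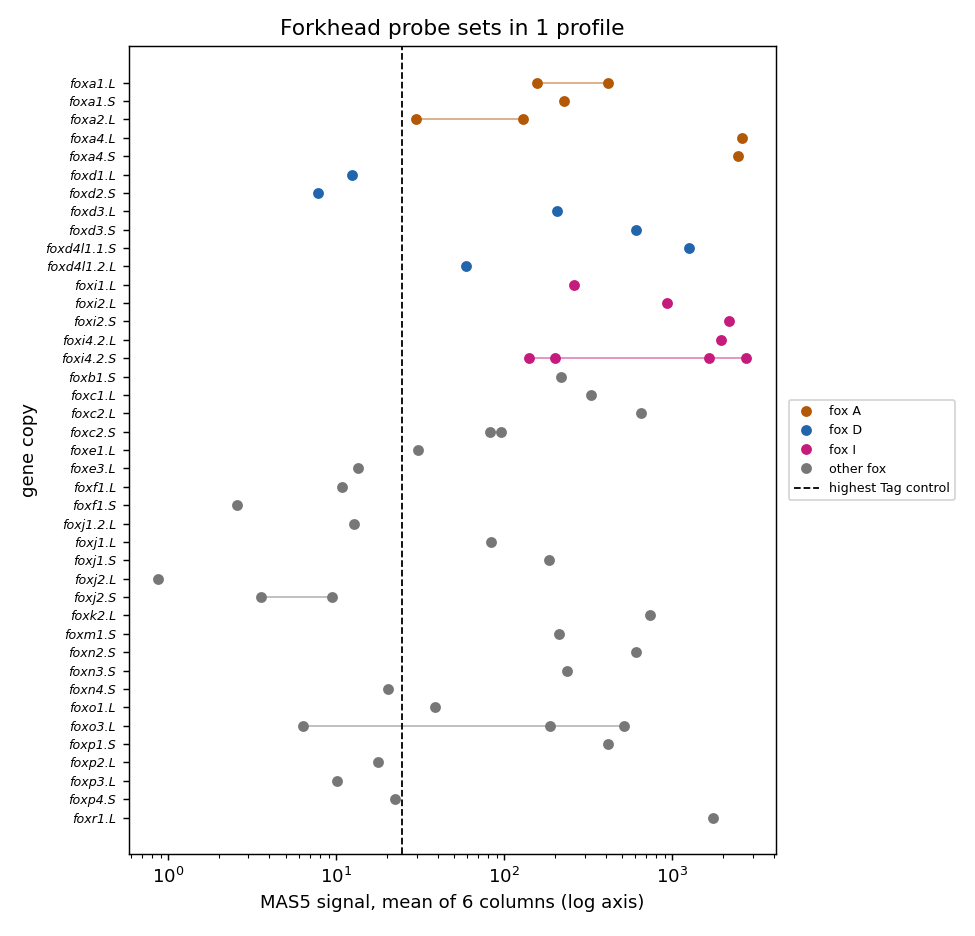
Signal of every fox probe set (points, mean of 6 columns, log axis) for the 41 gene copies, with a line joining probe sets of 1 copy and a dashed line at the highest Tag control (24.42). All fox A and fox I points lie to the right of the dashed line, and foxo3.L has points on both sides of it, from 6.36 to 515.28.

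Of the other fox subfamilies, 15 of 25 copies lay above the floor. Fox C genes, which act in the mesoderm that forms the somites, were above it in all 3 copies. The probe set of foxc1.L read 327.33 and that of foxc2.L 645.74, and those of foxc2.S read 81.86 and 95.52. The posterior neural gene foxb1 read 217.52 for its S copy. Also above the floor were foxm1.S, a driver of genes for mitosis, at 210.70, and foxk2.L, known in mammals for the control of autophagy genes, at 733.98. The 3 probe sets of foxo3.L, a factor that insulin signalling holds out of the nucleus, read 6.36, 187.12 and 515.28, and that of its relative foxo1.L read 38.63.

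The copy foxr1.L read 1750.16, and its gene is known in zebrafish for a maternal role in the egg. In the N subfamily, foxn2.S read 607.72 and foxn3.S 234.25. The foxn3 protein is a repressor needed for head skeleton development in Xenopus. The P subfamily factor foxp1.S, with roles in heart and blood cells in mammals, read 412.28, at an _a_at probe set alone. Of the cilia gene foxj1, the S copy read 183.47 and the L copy 82.94. The last member of the group above the floor was foxe1.L, a thyroid gene, at 30.67.

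In this group 10 copies were not above the floor. The visceral mesoderm gene foxf1 read 10.77 for its L copy and 2.58 for its S copy. The lens gene copy foxe3.L read 13.46, and foxn4.S, from a gene of the retina, read 20.43. In the P subfamily, foxp2.L read 17.61, foxp3.L 10.11 and foxp4.S 22.46. The copies foxp2.L and foxp4.S were read by _a_at probe sets alone. In mammals FOXP2 is known from brain circuits for vocal learning, and FOXP3 defines regulatory T cells. The copy foxj1.2.L read 12.72. For foxj2 the signals were 0.87 for the L copy and 3.56 and 9.39 for the S copy.

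No member had its brightest probe set between 23.57 and 30.67. Just below it were sox18.S at 23.57, foxp4.S at 22.46 and foxn4.S at 20.43, and just above it foxe1.L at 30.67, sox8.L at 36.86 and foxo1.L at 38.63. With the second highest Tag control (23.38) in its place, sox18.S moved above it. No lower floor was tried. The next Tag controls read 23.02 and 12.88. Both sox18 copies, foxe3.L, foxn4.S, foxp2.L and foxp4.S exceeded 12.88, though they are counted as not above the floor.

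For 14 genes both the L and the S copy had a probe set. Both copies were above the floor for 11 of them, neither was for 3 (foxf1, foxj2 and sox18), and for 0 genes was only one copy above it. Among all 2009 named pairs of copies, both were above the floor in 77.6%, neither in 10.5% and only one in 11.9%. The 0 among the members depends on the floor. At the second highest Tag control (23.38), sox18.S at 23.57 lies above and sox18.L at 17.01 does not. At a signal of 100, the 2 copies of foxc2, of foxj1 and of sox9 lie on different sides. All named pairs were not recounted at these floors. Whether the probe sets tell the copies apart was not tested. The signals of the 2 copies are those of different probe sets, so the distance between them is not a difference in RNA.

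**Figure D4:**
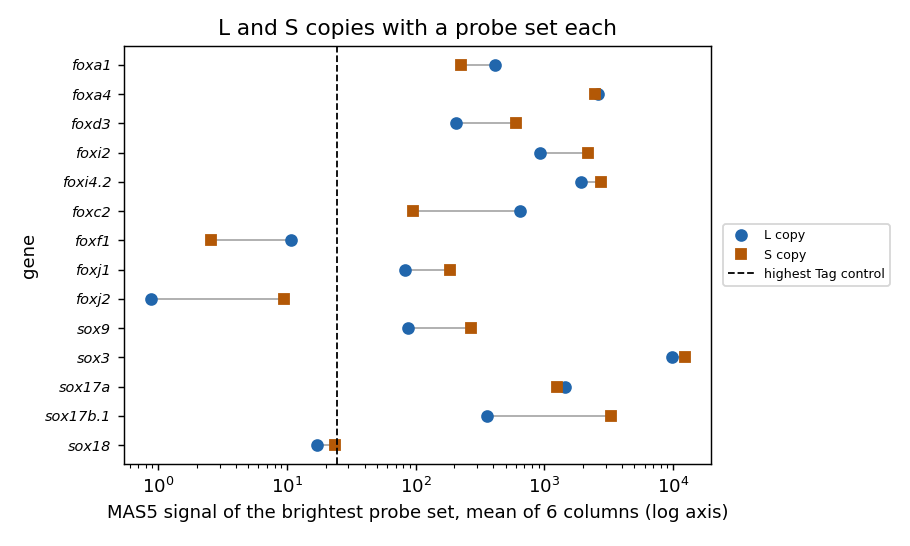
Signal of the brightest probe set (x axis, log scale, mean of 6 columns) for the L copy (circles) and the S copy (squares) of the 14 genes with both, with the highest Tag control (24.42) dashed. In every row both symbols lie on the same side of the dashed line, and foxf1, foxj2 and sox18 lie to its left.

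The 2 subgenomes gave like shares. Of the L copies of these families, 24 of 33 were above the floor (72.7%), and of the S copies 20 of 27 (74.1%). Among all named copies the shares were 80.6% for L (5248 of 6512) and 81.6% for S (3562 of 4364). The 11303 named copies also include symbols without either suffix, whereas every member carries one. Copies with more than 1 probe set have more chances to pass. In the 2 families, 10 of 11 such copies were above the floor, against 34 of 49 copies with a single probe set. Over all named copies the same shares were 88.7% and 77.8%. Probe sets on both sides of the floor were found for 2 of the 11 copies (foxo3.L and sox8.L), and for 21.0% of all named copies with more than 1 probe set.

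The annotation of the array names only part of the families. Of 113 sox and fox copies in the RefSeq gene list of assembly Xenopus_laevis_v10.1, 60 had a probe set with a single symbol. These were 4 of 5 sox B1, 7 of 8 sox F and 8 of 21 other sox copies. For fox they were 5 of 5 fox A, 6 of 9 fox D, 5 of 8 fox I and 25 of 57 other fox copies. The B2 subfamily of sox (sox14 and sox21) and the G, L and Q subfamilies of fox had none named here. A further 5 probe sets were given to several genes by the annotation, at least one of them a sox or fox gene, and were left out.

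In the RefSeq gene order several members are neighbours. The genes sox17a and sox17b.1 lie next to each other in both subgenomes, and all 4 copies were above the floor. The gene foxi4.2 adjoins foxi4.1 in both, and foxi4.1 had no probe set named here. In both subgenomes foxe3 adjoins foxd2, and the copies measured at these places, foxe3.L at 13.46 and foxd2.S at 7.78, were not above the floor. The mesoderm genes foxc1 and foxc2 adjoin foxf2 and foxl1, which had no probe set named here.

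Genes that act with these factors were read from a list of 39 genes, of which 34 were named here, in 54 copies. Of these, 53 were above the floor, beside 80.4% of all named copies. The list was written with earlier results of these data known. Of POU factors, some of which pair with Sox proteins on DNA, the list holds 4 copies, and all 4 were above the floor. Over every POU copy named on the array the count was 7 of 12. The signals of the 4 listed were 18816.43 for pou5f3.2.L, 3333.17 for pou5f3.1.L, 1363.9 for pou5f3.3.L and 5924.49 for pou2f1.S. Beta-catenin, which Sox17 and Sox3 proteins can bind, was represented by ctnnb1.L at 12150.88 and ctnnb1.S at 10012.72.

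The T-box gene vegt, a maternal determinant of endoderm upstream of sox17, read 9585.92 for its L copy and 10637.7 for its S copy. Among ectodermal partners, gmnn.S and gmnn.L, which encode geminin, read 12467 and 7759.38. All 18 copies of the endoderm factors, 13 of the ectoderm factors and 9 of the axial factors on the list were above the floor. So were the 4 copies of Groucho (tle) family genes. Since the list was chosen with results known, nothing is read from these counts, and zic5.S, of the same family as the listed zic1 and zic2, read 15.63 and was not above the floor. Of the listed copies, only lef1.S, from a Wnt effector gene, was not above it, at 19.58.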

How the data were processed

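The deposited table holds intensities on a linear scale with 2 decimals, 1 column for each of 6 samples. Per the submitters' processing notes they are signals of MAS5, the Affymetrix method that reduces a probe set to 1 value. For its scaling target and detection calls, the sources used here give no entry. Of 32539 probe sets that are not controls, 15495 had 1 symbol in the platform annotation, 279 had several and 16765 were unnamed here. Symbols of all 60 member copies were the same in the RefSeq gene list of assembly Xenopus_laevis_v10.1, which served only for names and gene order. Columns were called proportional where 1 factor fitted all probe sets, with each value known to 0.005, and this step was tested on simulated columns. No test between groups was made, since the columns hold 1 profile, and no precision can be given for it. The level of a gene copy is that of its brightest probe set. Every copy of sox B1, sox F, fox A, fox D and fox I was named with all probe sets, and the others at least at the brightest. Alternatives were other floors, other summaries of probe sets, fewer probe sets, updated symbols and left-out replicates. Members, lists and floor were chosen with earlier results of these data known. No probe, protein or promoter sequences were used here. Python 3.11.15, numpy 2.4.6, pandas 2.3.3 and matplotlib 3.10.9 were used.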

Additional observations from a re-analysis of the deposited data

How the results depend on the processing

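Counts above the floor were recomputed under 11 alternatives for the 7 groups, the 2 families and all named copies. Each of the 110 counts stayed within 1.5 times the reported one, a wide limit for groups of few copies. Left-out replicates and updated symbols could not change the member counts, so they are no check, though they are among the 110. With a signal of 100 as the floor, other sox fell from 6 to 4 of 8 copies, which lies at that limit. Fox D fell from 4 to 3 of 6 and other fox from 15 to 11 of 25. Sox B1, sox F, fox A and fox I kept their counts. At that floor 67.6% of all named copies were above it. The 15 sox copies became 16 with the second highest Tag control (23.38) as the floor, 14 with 2 times the highest (48.84) or the 40th percentile of probe sets (54.78), and 13 with a signal of 100. The 29 fox copies became 29, 27, 27 and 24, and the 9087 named copies became 9129, 8370, 8262 and 7641. With the dimmest probe set of a copy the counts were 14 sox, 28 fox and 8520 named copies. Without probe sets ending in _x_at, _s_at or _a_at, 27 of 37 fox copies and 15 of 19 sox copies were above the floor. Of all named copies, 8538 of 10742 were above it in that setting (79.5%). Sox B1 (4 of 4), fox A (5 of 5) and fox I (5 of 5) were above every floor tried at the brightest probe set. They were also above the highest Tag control with every summary. Other summaries were not combined with other floors, and the dimmest probe set of foxa2.L (29.71) lies below 48.84. For fox I, 4 of 4 copies remained without the sets ending in _x_at, _s_at or _a_at. Groups this small are not set apart by these counts, since 80.4% of all named copies were above the highest Tag control. Leaving out replicate 1, 2 or 3 gave 15 sox and 29 fox copies each time, which follows from proportional columns. No paired analysis was possible because all 6 columns, whatever their replicate number, share 1 profile and the counts come from no test.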

Other observations

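Other families of transcription factors, chosen after the data were seen, were counted against the same floor (24.42). For GATA genes 8 of 10 copies were above it. The exceptions were gata1.L at 18.66 and gata1.S at 4.03, copies of a gene of red blood cell formation. For T-box genes the count was 13 of 19. Not above the floor were both copies of tbx1, a pharyngeal gene, at 6.45 for L and 8.69 for S, and both of tbx5, a heart and forelimb gene, at 2.02 for L and 2.35 for S, as well as tbx4.L at 2.73 and tbx20.L at 4.34. Among POU genes, 7 of 12 copies were above it. Not above it were both copies of the brain gene pou3f4, at 3.94 for L and 0.87 for S. Neither were pou2f3.L at 20.36, pou3f3.S at 20.15 and pou4f1.L at 14.6. Above it lay pou3f2.S at 56.57 and, close to the floor, pou3f1.L at 25.25. The counts were 4 of 5 for zic genes and 11 of 14 for klf genes, beside 80.4% of all named copies, and none of these shares was tested.

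The 5 probe sets that the annotation gives to several genes, a sox or fox gene among them, had signals from 87.77 to 1722.04. All 5 were above the floor. The share over all probe sets with several symbols was not computed, so nothing is read from this count.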
